A study of Mus musculus with 8 samples.

Results

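The genes of the mitochondrial respiratory chain were examined in mouse bone marrow-derived mesenchymal stem cells that received a cFos or a luciferase (Luc) retrovirus. The genes were taken by symbol: all names starting with Nduf or Uqcr, the genes Sdha, Sdhb, Sdhc and Sdhd, and all names starting with Cox4 to Cox8. This gave 77 genes of the 23503 in the deposited tables, by a rule that reads symbols and no measured value. All cells are labelled as p53 knockout and came from 4 single clones, numbered 2, 4, 8 and 12. Each clone gave 1 library with cFos, the AP-1 transcription factor subunit, and 1 library with Luc, an enzyme used as the control, so that 4 cFos and 4 Luc libraries of polyadenylated RNA were compared. The cells were below passage 20 and were grown in MesenCult medium. A name such as cFos 8 stands for the cFos library of clone 8. Levels are in FPKM, a fragment number divided by transcript length and by library size, summed over the transcripts of a symbol. Group values are mean ± SD with n = 4, 1 library per clone, which makes the SD a spread between clonal lines. No clone was sequenced again with the same virus.

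The respiratory chain passes electrons from NADH and succinate to oxygen and pumps protons across the inner mitochondrial membrane. Complex I (NADH dehydrogenase) and complex II (succinate dehydrogenase) feed electrons to ubiquinone, complex III (the cytochrome bc1 complex) passes them to cytochrome c, and complex IV (cytochrome c oxidase) reduces oxygen. All subunits of complex II and most subunits of the other complexes are nuclear genes, and only nuclear genes are described here. The symbol rule leaves out Cyc1, the nuclear gene of a complex III subunit. It was listed with the electron carriers below, so the complex III values lack it. Cultured mesenchymal stem cells are known to draw much of their energy from glycolysis, and their mitochondrial respiration is known to increase when they differentiate into bone or fat cells. Several complex IV subunits have a paralog used in muscle, testis or under low oxygen. The 77 genes fell into 7 core subunits, 29 accessory subunits and 8 assembly factors of complex I, 4 genes of complex II, 8 of complex III, 12 of complex IV, 8 tissue isoforms and 1 pseudogene, Ndufs5-ps. Ndufa4, once assigned to complex I, was counted with complex IV, of which its human protein is now known as a subunit.

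Each library held 6.93 to 9.14 gigabases of sequence on annotated transcripts, and 10970 to 11121 genes per library reached 1 FPKM. Fos was listed at 589, 675, 1019 and 505 FPKM in cFos 2, 4, 8 and 12, against 76.2, 41.1, 302 and 43.5 FPKM in Luc 2, 4, 8 and 12, so Luc 8 held more Fos than the other Luc libraries. Trp53, which encodes p53, was listed at 6.32 to 6.85 FPKM in cFos and 6.17 to 9.28 FPKM in Luc. The labels do not say what the knockout deletes, and this level is therefore no check of it. All 9 mesenchymal markers, such as Pdgfrb and Col1a1, reached 1 FPKM in at least 1 library. Blood markers summed to 34.5 to 146 FPKM in cFos and 0.918 to 2.74 FPKM in Luc, of which Cd14 and Hba-a1 were the genes that reached 1 FPKM. Their part in the results below was not tested. Endothelial, epithelial and germ cell markers did not reach 1 FPKM.

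No respiratory chain gene passed the test between the arms. Of the 77 genes, 71 reached 1 FPKM in at least 4 of the 8 libraries and entered limma's two-sided test on log2(FPKM + 0.5), which was run over 11162 genes. At a Benjamini-Hochberg adjusted p under 0.05, 0 of the 71 rose and 0 fell in cFos, where 5.55% of all genes tested were called (2.92% as rises and 2.62% as falls). With the clone as a block the counts were again 0 and 0, against a background of 8.79%. At an unadjusted p under 0.05, limma gave 10 genes lower and 1 higher in cFos. These were 14.1% and 1.41% of the 71, against 11.1% and 9.06% of all genes tested. With the clone block, which pairs the libraries, it gave 9 lower and 2 higher, or 12.7% and 2.82% of the 71, against 14.3% and 11.7% of all genes tested. The share of lower genes was thus near the background in both fits, above it in the unpaired fit and below it with the block.

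The intervals bound the size of the differences. The 95% interval of the cFos over Luc difference lay within 2-fold either way for 68 of the 71 genes, or 95.8%, against 76.1% of all genes tested, and within 1.5-fold for 46 of them, or 64.8%, against 40.6%. These shares were not matched for level. The median level was 76.5 FPKM for the 71 genes and 11.75 FPKM for all genes tested. The intervals came from the fit of the arms alone, without the clone block. The 3 genes whose intervals reached beyond 2-fold in that fit were Cox7a1, Cox4i2 and Uqcr11. For Cox4i2, the SE of the log2 difference was 0.82 in that fit and 0.22 with the clone block. Cox7a1 and Cox4i2 were also low in level, at 2.03 and 2.81 FPKM on average over the 8 libraries.

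**Figure D1:**
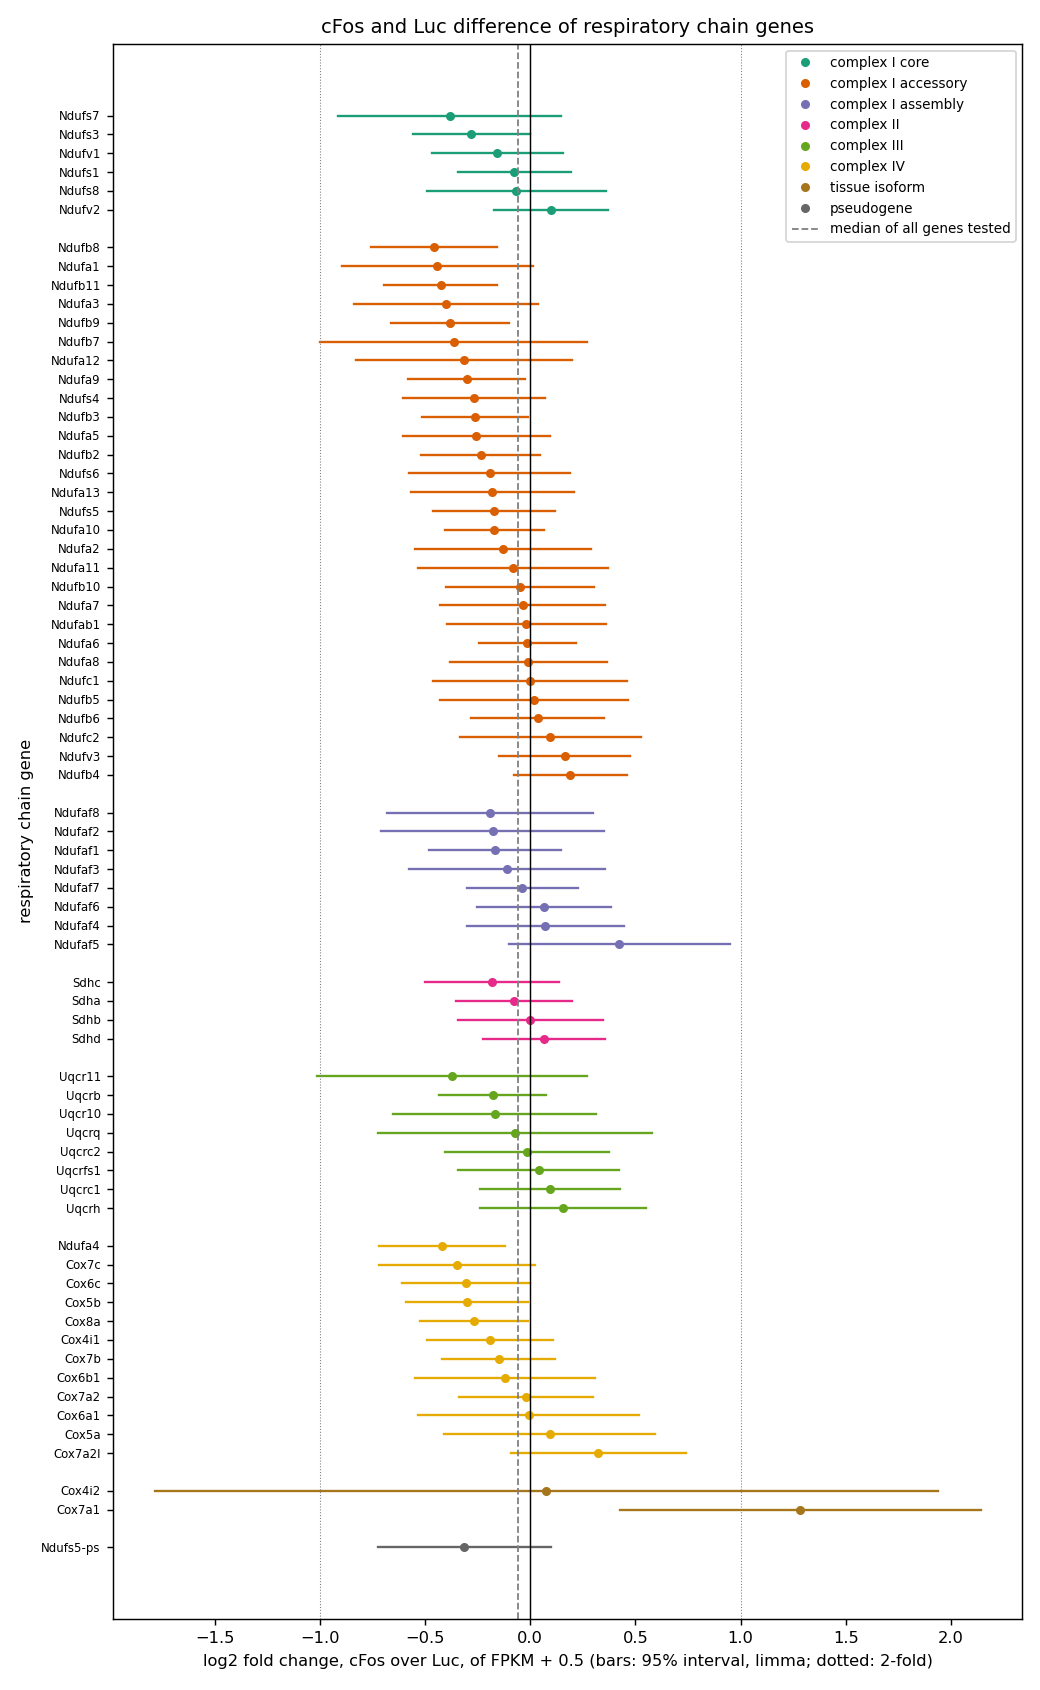
Difference between cFos and Luc for 70 of the 71 tested genes, grouped by complex. Points are log2 fold changes of FPKM + 0.5 and bars their 95% intervals from limma, the dashed line is the median of all genes tested (-0.06), and the dotted lines mark a 2-fold change. Most points lie left of 0, and no gene passed the adjusted threshold.

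The direction was lower in cFos for 53 of the 71 genes, or 74.6%, where 58.3% of all genes tested were lower. The median log2 difference of the 71 was -0.12, beside -0.06 for all genes tested. Complex IV had a median of -0.17 and the 36 structural subunits of complex I -0.16, split into -0.10 for the core and -0.17 for the accessory subunits. The complex I assembly factors were at -0.07. Complexes II and III were both at -0.04, close to the median of all genes tested. The median of the 71 was -0.04 without cFos 12, and that of the complex I structural subunits -0.06. With all libraries set to the same median, the medians were -0.06 for the 71 genes, -0.10 for complex I and -0.11 for complex IV, and those of complexes II and III changed sign to 0.02 each. The complex II median was also 0.02 without Luc 2, and that of complex III was 0.01 without Luc 4 and 0.03 without cFos 12.

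Within the clones, the medians were not all on the same side of 0. The median difference of the 71 genes was -0.16, -0.20, 0.08 and -0.27 for clones 2, 4, 8 and 12, beside -0.06, -0.09, -0.02 and -0.02 for all genes tested. Of the 71 genes, 41, 62, 29 and 53 were lower in cFos for those clones in the same order. Of all 11162 genes tested, 6104, 6934, 5798 and 5778 were lower. In clone 4 this held for 34 of the 36 complex I structural subunits and 11 of the 12 complex IV genes. In clone 8 it held for 15 of 36 and 5 of 12, and for 1 of the 8 complex III genes. The pattern was not particular to the chain. Of 17 ATP synthase genes, 17 were lower in cFos in clone 4 and 4 in clone 8. Of 78 mitochondrial ribosome genes, 72 were lower in clone 4 and 19 in clone 8. With 1 library per arm and clone, a difference between clones in the response to cFos could not be tested. Luc 8 was the Luc library with the highest Fos, and the part of that in the values of clone 8 was not tested. All 4 clones were lower in cFos for 17 of the 71 genes, or 23.9%, against 20.9% of all genes tested, and all 4 were higher for 2 genes, Cox7a1 and Ndufaf5, or 2.82%, against 15.3%.

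**Figure D2:**
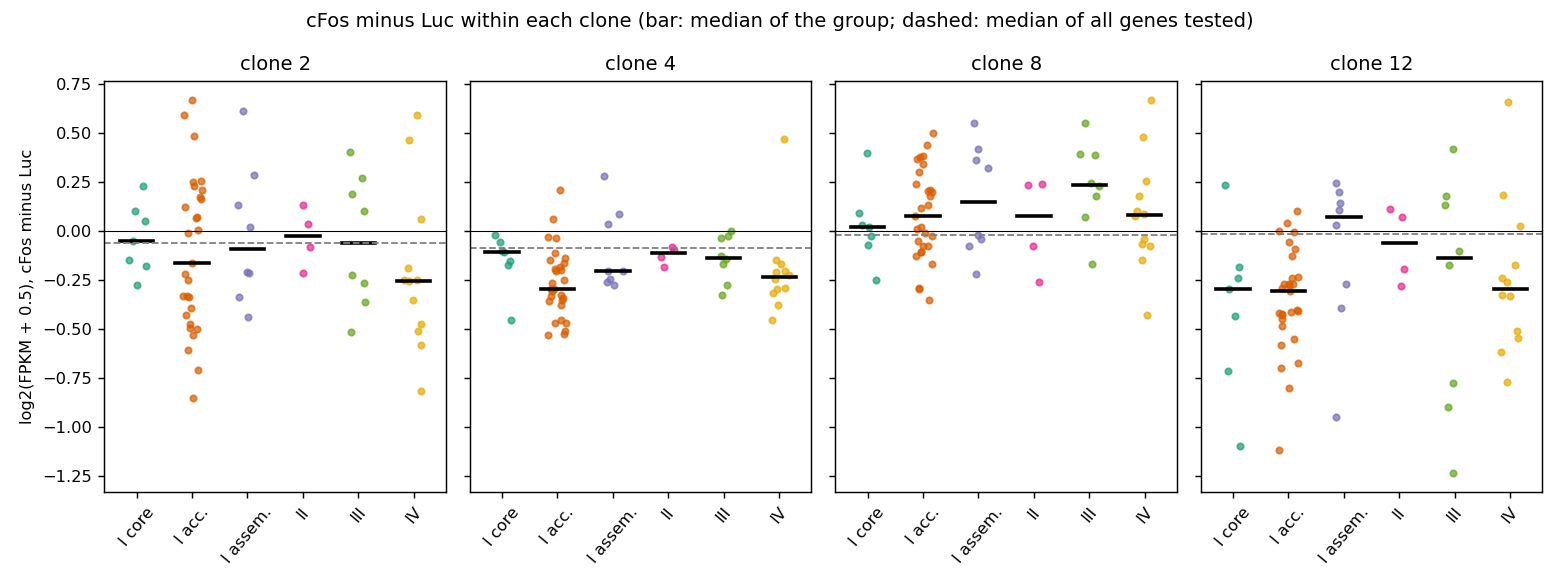
cFos minus Luc within each clone on the log2(FPKM + 0.5) scale, 1 point per gene, by group of genes; tissue isoforms and the pseudogene are not drawn. Black bars are the medians of the groups and the dashed line is the median of all genes tested. The medians of all 6 groups lie below 0 in clone 4 and above 0 in clone 8.

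Summed levels were lower in cFos in 3 of the 4 clones. The 77 genes together held 7218, 6989, 7180 and 6098 FPKM in cFos 2, 4, 8 and 12, against 8085, 8122, 6929 and 7550 FPKM in Luc 2, 4, 8 and 12. The arms overlapped through Luc 8, the lowest Luc library. The mean was 6871 ± 525 FPKM in cFos and 7671 ± 559 FPKM in Luc, a difference of -10.4%, and by clone -10.7%, -13.9%, 3.62% and -19.2%. As a share of each library's total FPKM the genes made up 1.49%, 1.51%, 1.49% and 1.36% in cFos, against 1.75%, 1.67%, 1.61% and 1.64% in Luc. On that scale the arms did not overlap, and clone 8 was also lower in cFos. In clone 8 this came with a higher total, 481265 FPKM in cFos 8 against 429256 FPKM in Luc 8. The sum of the genes themselves was higher in cFos 8. These sums were not tested, and they weigh the abundant small subunits most. In bulk RNA, fewer cells with a high level and less RNA per cell cannot be told apart.

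By complex, the sum of the complex IV genes was 2695 ± 182 FPKM in cFos and 3081 ± 248 FPKM in Luc, a difference of -12.5%. The complex I structural subunits summed to 2738 ± 240 FPKM in cFos and 3082 ± 215 FPKM in Luc, or -11.1%. The complex I assembly factors differed by -6.72%, complex III by -4.68% and complex II by -3.99%. Complex II summed to 303 ± 19.7 FPKM in cFos and 316 ± 16.1 FPKM in Luc, a difference smaller than the spread between clones.

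**Figure D3:**
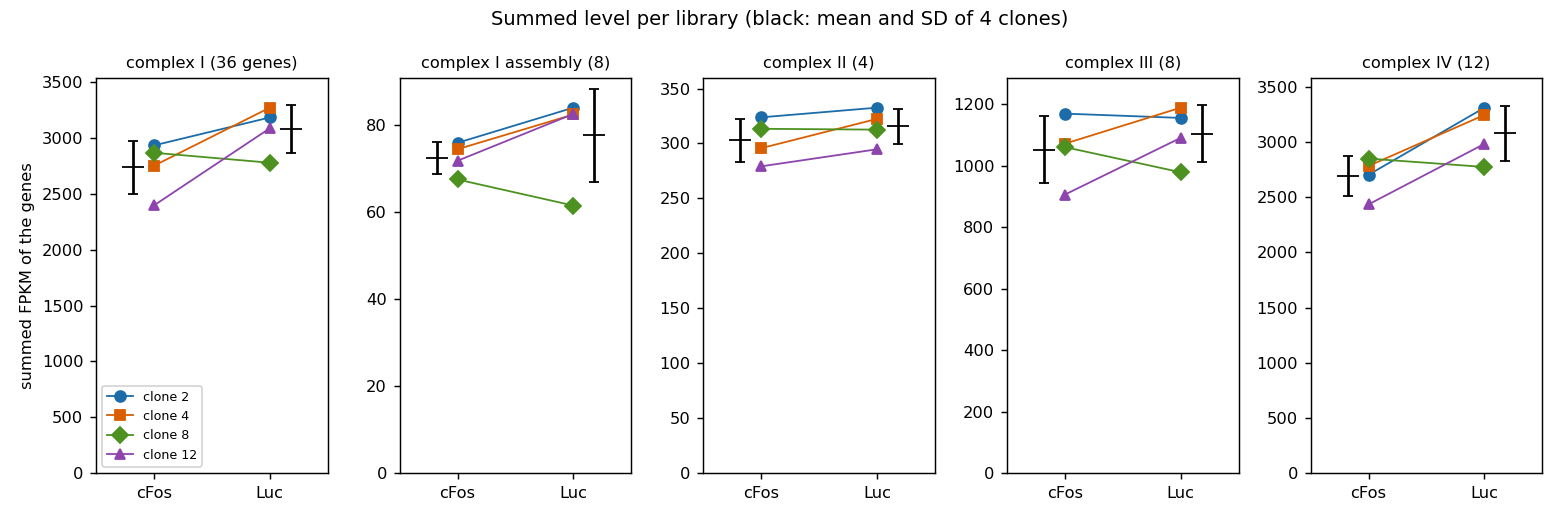
Summed FPKM of each group of genes per library, with cFos at the left and Luc at the right of each panel and a line joining the libraries of a clone. Black marks are mean and SD of the 4 clones, and the vertical axes start at 0. In clone 8 the sums of complex I (36 genes), complex I assembly, complex III and complex IV are higher in cFos, and the complex II sums are nearly equal at 313 FPKM in both libraries.

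Levels per length differed widely between the genes, and the medians of the groups differed by complex. Averaged over the 8 libraries, the median gene of complex IV stood at 232 FPKM, of complex III at 125 FPKM, of the complex I accessory subunits at 85.0 FPKM, of complex II at 75.5 FPKM and of the complex I core at 56.9 FPKM. The assembly factors were at 7.26 FPKM. The ranges of several groups overlapped. Gene means ran from 105 to 516 FPKM in complex IV, 47.3 to 315 FPKM in complex III and 10.2 to 209 FPKM among the accessory subunits. The highest levels were those of Ndufa4 (516 FPKM), Cox4i1 (397 FPKM) and Uqcrh (315 FPKM). Within an arm, the SD over the 4 clones was 12.4% of the mean for the median gene in cFos and 14.2% in Luc, over the 68 genes outside the tissue isoforms and the pseudogene. Neighbours in the order often lay within that spread, as Cox6a1 (291 FPKM) and Cox6b1 (273 FPKM) did.

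Promoter windows were searched for motifs of factors known to control respiratory chain genes, nuclear respiratory factor 1 (NRF1), GABP of the ETS family and YY1, and for the AP-1 motif, which Fos binds as a dimer with a Jun protein. RefSeq windows of 300 bases in build GRCm38.p6, from 250 bases before to 50 after the start, were found for 61 of the 77 genes, as 63 windows, and both strands were read. A 10-letter NRF1 motif was in 22.2% of these windows against 4.60% of all 32851 promoters in the table, the GABP motif CCGGAAG in 20.6% against 8.86%, and the YY1 motif AAGATGGC in 12.7% against 2.75%. The AP-1 motif TGANTCA was in 7.94%, against 7.81% of all. The promoters of the background were not matched to the chain for level or GC content. The 5 genes with an AP-1 match were Cox7c, Ndufa5, Ndufa9, Ndufa13 and Uqcrh. A match describes the letters of the window and does not show binding. The GABP motif ends with the letters AAG with which the YY1 motif begins, so these can overlap.

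The windows shown are those of 2 genes without overlap between the arms (Ndufb8 and Cox8a), of a complex II gene with nearly equal arms (Sdhd), and of the paralogs Cox7a1 and Cox7a2. Each is printed on the strand of the gene, 5′ to 3′, with any motif match on either strand in capitals. Ndufb8 is chr19:44555393-44555692 (minus strand), Cox8a chr19:7217567-7217866 (minus), Sdhd chr9:50603800-50604099 (minus), Cox7a1 chr7:30183921-30184220 (plus) and Cox7a2 chr9:79759804-79760103 (minus).
Ndufb8: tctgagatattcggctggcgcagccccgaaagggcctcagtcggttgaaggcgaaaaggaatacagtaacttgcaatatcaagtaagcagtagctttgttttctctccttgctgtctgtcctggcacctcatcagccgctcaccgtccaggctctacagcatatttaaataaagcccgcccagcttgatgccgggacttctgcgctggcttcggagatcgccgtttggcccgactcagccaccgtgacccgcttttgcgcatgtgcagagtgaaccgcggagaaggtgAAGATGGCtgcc
Cox8a: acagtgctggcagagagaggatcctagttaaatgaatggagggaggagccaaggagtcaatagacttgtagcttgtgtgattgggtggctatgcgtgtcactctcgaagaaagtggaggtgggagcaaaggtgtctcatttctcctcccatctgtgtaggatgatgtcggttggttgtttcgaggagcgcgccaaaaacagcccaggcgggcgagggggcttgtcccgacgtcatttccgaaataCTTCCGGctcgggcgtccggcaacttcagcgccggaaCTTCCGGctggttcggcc
Sdhd: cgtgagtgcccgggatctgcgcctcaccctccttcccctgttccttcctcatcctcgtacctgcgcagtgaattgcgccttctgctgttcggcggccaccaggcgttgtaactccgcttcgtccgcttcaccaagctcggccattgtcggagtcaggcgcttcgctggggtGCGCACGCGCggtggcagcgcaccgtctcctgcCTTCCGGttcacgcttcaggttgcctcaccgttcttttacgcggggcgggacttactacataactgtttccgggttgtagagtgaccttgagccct
Cox7a1: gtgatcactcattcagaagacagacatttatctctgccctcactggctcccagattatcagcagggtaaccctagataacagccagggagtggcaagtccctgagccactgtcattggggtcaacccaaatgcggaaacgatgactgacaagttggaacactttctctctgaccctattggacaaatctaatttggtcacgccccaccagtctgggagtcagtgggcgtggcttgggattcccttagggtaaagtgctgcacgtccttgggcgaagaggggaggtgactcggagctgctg
Cox7a2: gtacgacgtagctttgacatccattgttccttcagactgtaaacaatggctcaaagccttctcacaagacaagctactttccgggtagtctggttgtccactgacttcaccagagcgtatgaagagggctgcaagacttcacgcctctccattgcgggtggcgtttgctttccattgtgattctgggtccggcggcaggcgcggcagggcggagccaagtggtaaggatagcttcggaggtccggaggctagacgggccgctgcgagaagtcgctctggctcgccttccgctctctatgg
The capitals mark a YY1 match in Ndufb8, 2 GABP matches in Cox8a, and an NRF1 and a GABP match in Sdhd. Neither the Cox7a1 nor the Cox7a2 window held any of the 4 motifs. The same was true of Ndufb3, Ndufb11 and Ndufa4, which also had no overlap between the arms and are not shown. Ndufb9, likewise without overlap, had no window. Ndufb8 and Cox8a are thus the genes without overlap whose window held a match. Of the other complex II genes, Sdhb held a GABP match and Sdha an NRF1 motif.

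Among the complex I core subunits, which carry the flavin and the iron-sulfur clusters, 6 of 7 were lower in cFos and none passed the test. Ndufs3, a subunit of the quinone-reducing part, had 63.3, 59.7, 56.8 and 52.5 FPKM in cFos 2, 4, 8 and 12, against 71.6, 81.9, 67.7 and 62.2 FPKM in Luc 2, 4, 8 and 12. It was lower in cFos in all 4 clones, but cFos 2 lay above Luc 12, and the log2 fold change was -0.28 (SE 0.12, limma adjusted p = 0.244). Ndufs7, which holds the last iron-sulfur cluster before ubiquinone, had 35.7, 39.3, 28.9 and 19.7 FPKM in cFos, against 43.4, 44.5, 28.5 and 42.8 FPKM in Luc. Its log2 difference was -0.38 (SE 0.23, limma adjusted p = 0.410). The lowest library was cFos 12, and the clone 8 pair was nearly equal. Ndufs8, which binds 2 iron-sulfur clusters, averaged 60.7 ± 9.12 FPKM in cFos and 64.3 ± 14.2 FPKM in Luc. Ndufv2, which carries an iron-sulfur cluster near the flavin, was the core subunit that was higher in cFos, at 58.9 ± 6.53 FPKM against 54.9 ± 3.84 FPKM in Luc. Its log2 difference of 0.10 was smaller than its SE of 0.12 (limma adjusted p = 0.705).

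Accessory subunits surround this core. Of the 29, 24 were lower in cFos. The 3 lowest adjusted p values among them were those of Ndufb11, Ndufb8 and Ndufb9, subunits of the membrane arm. Ndufb11 had 60.0, 67.2, 60.5 and 54.2 FPKM in cFos, against 75.7, 93.3, 77.5 and 79.5 FPKM in Luc. All 4 cFos libraries lay below all 4 Luc libraries, with a log2 difference of -0.43 (SE 0.12, limma adjusted p = 0.0781, or 0.0579 with the clone block). The adjusted p was 0.0490 with the block and an adjustment for GC content, where 9.77% of all genes were called, 0.117 with all libraries set to the same median, and 0.0843 to 0.187 with a library left out. Ndufb11 was chosen after its values were seen. Ndufb8 had 112, 91.4, 120 and 92.4 FPKM in cFos, against 158, 132, 131 and 148 FPKM in Luc, again without overlap (log2 difference -0.46, SE 0.13, limma adjusted p = 0.0880). Its difference was smallest in clone 8, at -0.13, and between -0.50 and -0.68 in the other clones.

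Ndufb9 had 120, 117, 137 and 108 FPKM in cFos, against 173, 167, 144 and 143 FPKM in Luc (log2 difference -0.38, SE 0.12, limma adjusted p = 0.120). Over all tested genes of the chain, 6 had every cFos library below every Luc library, namely Ndufb3, Ndufb8, Ndufb9, Ndufb11, Ndufa4 and Cox8a. This is 8.45% of the 71, beside 7.80% of all genes tested, so that share was near the background. For 0 genes did every cFos library lie above every Luc library (5.86% of all genes tested). Ndufb3, named for its values, had 65.7, 57.9, 67.8 and 60.2 FPKM in cFos, against 76.6, 68.9, 83.1 and 73.6 FPKM in Luc. Its 4 within-clone differences were close to each other, from -0.22 to -0.29 on the log2 scale.

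Other accessory subunits varied more between clones. Ndufa7, the accessory gene of highest level, had 257, 228, 170 and 174 FPKM in cFos, against 216, 219, 171 and 238 FPKM in Luc, and its log2 difference was -0.04 (SE 0.17). Ndufa3 was lower in cFos in all 4 clones, with 171, 124, 209 and 149 FPKM in cFos, against 242, 179, 257 and 181 FPKM in Luc. The arms overlapped, with Luc 4 and Luc 12 below cFos 8, and the log2 difference was -0.40 (SE 0.19, limma adjusted p = 0.288, or 0.0815 with the clone block). Ndufa12, named after its values were seen, had 97.7, 110, 87.2 and 97.0 FPKM in cFos, against 160, 136, 73.8 and 136 FPKM in Luc. It was lower in cFos in 3 clones and higher in clone 8 (log2 difference -0.32, limma adjusted p = 0.488), and the value depended on single libraries. Without Luc 8, the Luc library that goes against the difference, it was -0.55 (limma adjusted p = 0.0432, where 5.19% of all genes were called), and without Luc 2 it was -0.18 (limma adjusted p = 0.759). Ndufb4 was the accessory subunit with the largest difference toward cFos, at 101 ± 9.96 FPKM against 87.9 ± 6.73 FPKM in Luc (log2 difference 0.19, SE 0.12, limma adjusted p = 0.416).

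The complex I assembly factors build the complex without staying in it, and were 5 lower and 3 higher in cFos. Ndufaf5, which hydroxylates an arginine of Ndufs7, had 7.14, 6.91, 4.90 and 8.04 FPKM in cFos, against 4.49, 5.61, 3.19 and 6.71 FPKM in Luc. It was higher in cFos in all 4 clones, with a log2 difference of 0.42 (SE 0.23, limma adjusted p = 0.354, or 0.107 with the clone block). Its partner Ndufaf8 had 7.90, 10.8, 7.38 and 6.03 FPKM in cFos, against 7.16, 10.1, 7.60 and 12.1 FPKM in Luc, with the largest difference in clone 12. Ndufaf2, a paralog of Ndufa12, had 23.5, 22.6, 19.1 and 23.2 FPKM in cFos, against 32.1, 27.0, 14.7 and 30.6 FPKM in Luc. Like Ndufa12 it was lower in cFos in clones 2, 4 and 12 and higher in clone 8. Ndufaf1, a member of the membrane-arm assembly complex, averaged 11.6 ± 0.910 FPKM in cFos and 13.2 ± 1.91 FPKM in Luc. Ndufaf7, a methyltransferase, averaged 10.9 ± 0.803 FPKM in cFos and 11.2 ± 0.841 FPKM in Luc.

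Complex II links the chain to the citric acid cycle, and its 4 genes lay between 69.8 and 88.4 FPKM on average. The catalytic flavoprotein gene Sdha averaged 74.3 ± 4.67 FPKM in cFos and 78.7 ± 9.50 FPKM in Luc (log2 difference -0.08, SE 0.12, limma adjusted p = 0.771). The iron-sulfur subunit gene Sdhb had 82.7, 70.0, 63.9 and 62.3 FPKM in cFos, against 75.4, 74.0, 54.3 and 75.9 FPKM in Luc, and the arm means were nearly equal. The membrane anchors were Sdhc, at 82.8 ± 10.2 FPKM in cFos and 94.0 ± 13.4 FPKM in Luc (log2 difference -0.18, SE 0.14), and Sdhd, at 76.2 ± 8.21 FPKM in cFos and 72.9 ± 8.01 FPKM in Luc (0.06, SE 0.13). Sdhc was lower in cFos in all 4 clones. The 95% interval of the Sdha difference was -0.35 to 0.20 on the log2 scale.

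In complex III, 5 of 8 genes were lower and 3 higher in cFos. Uqcrh, the hinge protein that helps cytochrome c bind, had 401, 279, 333 and 310 FPKM in cFos, against 303, 286, 374 and 231 FPKM in Luc, and the clones did not share a direction (log2 difference 0.16, SE 0.17, limma adjusted p = 0.671). Uqcr11, the smallest subunit, had 145, 181, 146 and 79.2 FPKM in cFos, against 207, 198, 111 and 187 FPKM in Luc. The lowest value was again cFos 12 (log2 difference -0.37, SE 0.28, limma adjusted p = 0.520). Uqcrb averaged 174 ± 11.2 FPKM in cFos and 198 ± 16.7 FPKM in Luc (-0.18, SE 0.11, limma adjusted p = 0.416). The catalytic Rieske iron-sulfur protein gene Uqcrfs1, named for its role, averaged 50.4 ± 3.95 FPKM in cFos and 49.9 ± 11.4 FPKM in Luc.

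In complex IV, 10 of 12 genes were lower in cFos. Ndufa4, the gene of highest level in the chain, had 383, 450, 508 and 425 FPKM in cFos, against 675, 585, 563 and 535 FPKM in Luc, without overlap (log2 difference -0.42, SE 0.13, limma adjusted p = 0.115). Cox8a, one of the small subunits and named for its values, had 218, 210, 209 and 190 FPKM in cFos, against 260, 249, 219 and 270 FPKM in Luc. In clone 8 these were close, and the log2 difference over the clones was -0.27 (SE 0.11, limma adjusted p = 0.228). Cox4i1, the common form of the regulatory subunit 4, had 368, 429, 359 and 328 FPKM in cFos, against 437, 476, 368 and 412 FPKM in Luc (-0.19, SE 0.13, limma adjusted p = 0.469). Cox6a1 had 317, 330, 300 and 206 FPKM in cFos, against 229, 381, 216 and 352 FPKM in Luc, with no common direction.

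Cox7a2l, whose protein can join complex III and complex IV into supercomplexes, was the complex IV gene with the largest difference toward cFos. It had 247, 225, 171 and 213 FPKM in cFos, against 164, 162, 230 and 135 FPKM in Luc. It was higher in cFos in clones 2, 4 and 12 and lower in clone 8 (log2 difference 0.32, SE 0.18, limma adjusted p = 0.371). It passed the threshold in none of the alternatives run, with limma adjusted p from 0.124 to 0.619.

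The tissue isoforms were low. Cox8b, the muscle form of subunit 8, and Cox8c, its testis form, were listed at 0 in all 8 libraries, and the testis form Cox7b2 stayed at or below 0.0812 FPKM. Cox7a1, the heart and muscle paralog of Cox7a2, had the largest log2 difference of the 71 genes. It had 2.93, 4.22, 4.57 and 0.976 FPKM in cFos 2, 4, 8 and 12, against 0.940, 1.16, 0.572 and 0.842 FPKM in Luc. cFos 2, 4 and 8 stood above all Luc libraries and cFos 12 among them. The log2 difference was 1.28 (SE 0.38, limma adjusted p = 0.0916, or 0.0667 with the clone block). With no filter on low genes the adjusted p was 0.240, and it was 0.125 to 0.222 with any library other than cFos 12 left out. Without cFos 12, the cFos library that lies among the Luc values, the difference was 1.67 (limma adjusted p = 0.00972, where 4.68% of all genes were called), a value that depends on leaving out the library that goes against it. Cox7a1 passed the filter on low values with exactly 4 libraries, 3 of them cFos. The deposited FPKM limits were 1.70 to 4.16, 2.72 to 5.71, 2.95 to 6.18 and 0.179 to 1.77 in cFos, against 0.275 to 1.60, 0.388 to 1.94, 0 to 1.14 and 0.155 to 1.53 in Luc. The mean depth over its transcript was 25.6, 33.0, 34.5 and 5.57 reads per base in cFos, against 9.07, 9.83, 4.58 and 5.59 reads per base in Luc. The ubiquitous paralog Cox7a2 stood at 128 ± 14.8 FPKM in cFos and 130 ± 18.5 FPKM in Luc, so Cox7a1 stayed far below it in every library.

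Striated muscle markers summed to 0.866 to 2.58 FPKM in cFos and 1.86 to 4.997 FPKM in Luc. Acta1 was the marker that reached 1 FPKM, and Myog and Ckm were listed at 0 in every library. Brown fat markers, of which Prdm16 reached 1 FPKM, summed to 3.05 to 7.26 FPKM in cFos and 1.86 to 5.63 FPKM in Luc.

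Cox6a2, the muscle paralog of Cox6a1, had 0.896, 0.753, 2.31 and 0.489 FPKM in cFos, against 0.310, 0.348, 0.0544 and 0.376 FPKM in Luc. All cFos values were higher, but the gene did not pass the filter, and in the fit without a filter its log2 difference was 0.97 (SE 0.34, limma adjusted p = 0.278). Cox6b2, the testis paralog of Cox6b1, had 0.737, 0.0651, 0.949 and 1.59 FPKM in cFos, against 6.34, 0.0643, 6.46 and 0.939 FPKM in Luc, so Luc 2 and Luc 8 stood apart. Ndufa4l2, a paralog of Ndufa4 known to respond to low oxygen, was highest in clone 12, at 0.964 FPKM in cFos 12 and 1.64 FPKM in Luc 12.

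**Figure D4:**
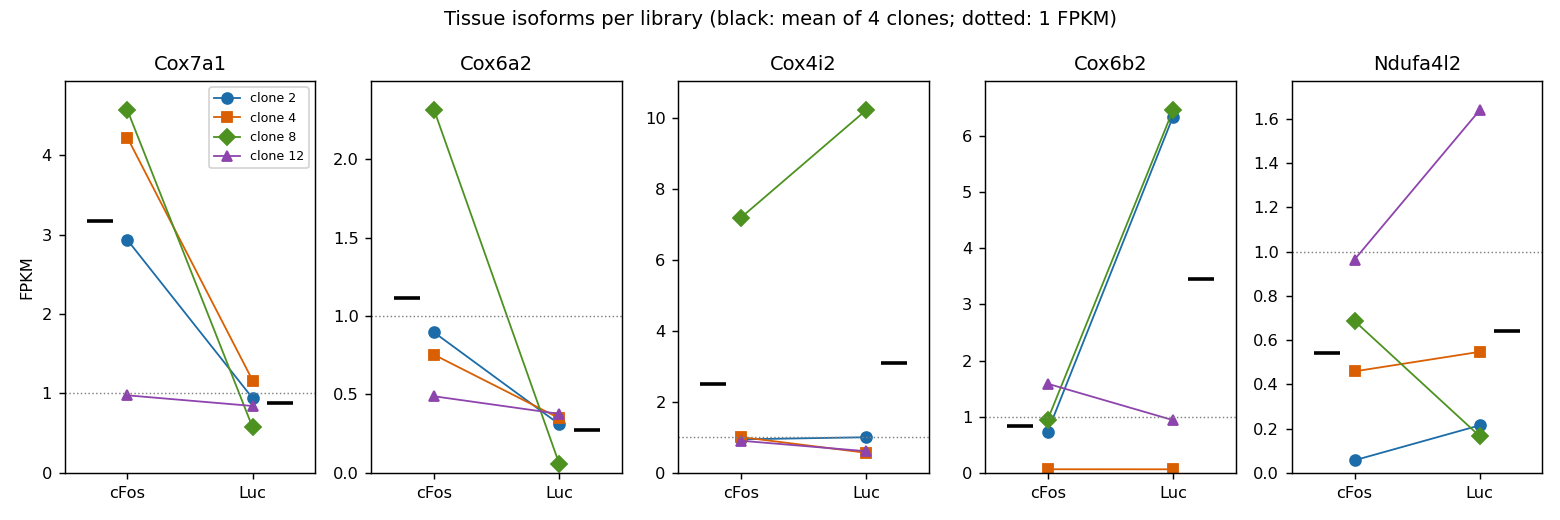
FPKM of 5 tissue isoforms in every library, with cFos at the left and Luc at the right of each panel and a line joining the libraries of a clone. Black bars are the means of the 4 clones and the dotted line marks 1 FPKM. Cox7a1 and Cox6a2 are higher in cFos in every clone, Cox4i2 is high in both libraries of clone 8, and Cox6b2 is high in Luc 2 and Luc 8.

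Differences between clones were tested with limma's F test in a model of arm plus clone. It called 1 of the 71 genes, Cox4i2, where 0.484% of all genes tested were called. Cox4i2, the lung form of subunit 4 that is known to be induced by low oxygen, had 0.946, 1.01, 7.19 and 0.907 FPKM in cFos 2, 4, 8 and 12, against 1.00, 0.566, 10.2 and 0.611 FPKM in Luc. Both libraries of clone 8 stood above the other 6, which lay between 0.566 and 1.01 FPKM, and the ratio of the means was 10.4. The limma adjusted p was 0.0389, and 4 of 14 alternatives kept the call, with adjusted p from 0.0394 to 0.218 over the 14. Cox4i2 passed the filter on low values with exactly 4 libraries. These were both libraries of clone 8, where it is high, and cFos 4 and Luc 2 at 1.01 and 1.00 FPKM. With no filter the call was lost (limma F test adjusted p = 0.218). Between the arms the log2 difference of Cox4i2 was 0.08 (SE 0.82, or 0.22 with the clone block). Its common paralog Cox4i1 was at 359 FPKM in cFos 8 and 368 FPKM in Luc 8.

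The pseudogene Ndufs5-ps was listed at 2.41 ± 0.510 FPKM in cFos and 3.09 ± 0.412 FPKM in Luc. Of its 2 entries, 1 shares the Ndufs5 locus on chromosome 4, so the split of reads between this symbol and Ndufs5 (100 ± 13.9 FPKM in cFos and 112 ± 7.18 FPKM in Luc) is uncertain.

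Other mitochondrial genes were read from the same fit. They were 6 lists, covering ATP synthase, electron carriers, other assembly factors, regulators of mitochondrial biogenesis, the citric acid cycle and the mitochondrial ribosome. Of their 169 tested genes limma called 0, where 5.55% of all genes tested were called, and also 0 with the clone block, where 8.79% were. At an unadjusted p under 0.05 limma gave 1 of the 169 as higher and 3 as lower in cFos. Of all genes tested, 9.06% were higher and 11.1% lower, so both counts were below the background shares. The median log2 differences were -0.03 for the 17 ATP synthase genes, -0.10 for 5 electron carriers, -0.02 for 36 assembly factors, -0.09 for 15 regulators, 0.04 for 18 citric acid cycle genes and -0.08 for 78 ribosome genes. Of the electron carriers, Etfa averaged 82.7 ± 12.9 FPKM in cFos and 74.9 ± 13.9 FPKM in Luc, and Etfb 88.6 ± 35.6 FPKM in cFos and 106 ± 25.4 FPKM in Luc; both encode the flavoprotein that carries electrons from fatty acid oxidation.

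Atp5b, the catalytic beta subunit gene of ATP synthase, averaged 489 ± 33.6 FPKM in cFos and 509 ± 128 FPKM in Luc, and its small subunit gene Atp5k 411 ± 59.9 FPKM in cFos and 433 ± 49.7 FPKM in Luc. Cox17, the copper chaperone of complex IV, averaged 56.5 ± 12.2 FPKM in cFos and 53.3 ± 12.4 FPKM in Luc, and Uqcc2, a complex III assembly factor, 175 ± 48.4 FPKM in cFos and 150 ± 46.1 FPKM in Luc. Citrate synthase, encoded by Cs, was at 103 ± 11.2 FPKM in cFos and 105 ± 27.3 FPKM in Luc, and malate dehydrogenase, encoded by Mdh2, at 201 ± 33.6 FPKM in cFos and 183 ± 51.8 FPKM in Luc. The ribosomal protein genes Mrpl33 and Mrps21 were at 169 ± 41.9 and 135 ± 14.6 FPKM in cFos, against 128 ± 20.0 and 121 ± 24.1 FPKM in Luc. The transcription factor gene Yy1 was at 30.9 ± 5.90 FPKM in cFos and 29.6 ± 5.22 FPKM in Luc, and its fellow regulator Hcfc1 at 26.7 ± 1.42 FPKM in cFos and 32.0 ± 5.06 FPKM in Luc. None of these 12 genes passed the test.

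Levels moved with base composition most in 1 library, cFos 12. In cFos 12, the median deviation from the gene's mean over the 8 libraries was 0.13 on the log2 scale among the genes of lowest GC content and -0.24 among those of highest, with the genes split by GC content into 4 equal groups. Across genes within clone 12, the cFos minus Luc difference had a Spearman correlation with transcript GC content of -0.38 over 10988 genes and -0.46 over 70 genes of the chain, values that share the same 2 libraries. By library, the deviation had a Spearman correlation with GC content of -0.42 in cFos 12 and 0.23 in cFos 4. In the other libraries it lay between -0.08 and 0.17. Over the genes of the chain it was -0.56 in cFos 12, 0.43 in cFos 4 and between -0.25 and 0.34 in the others. The genes of the chain had a median GC content of 51.2%, against 50.2% for all genes tested. Their transcripts were short, with a median of 680 bases, and 47 of 71 were under 1000 bases. With each library adjusted for GC content, the median difference of the 70 genes was -0.15, -0.19, 0.10 and -0.24 in clones 2, 4, 8 and 12, close to the unadjusted values.

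**Figure D5:**
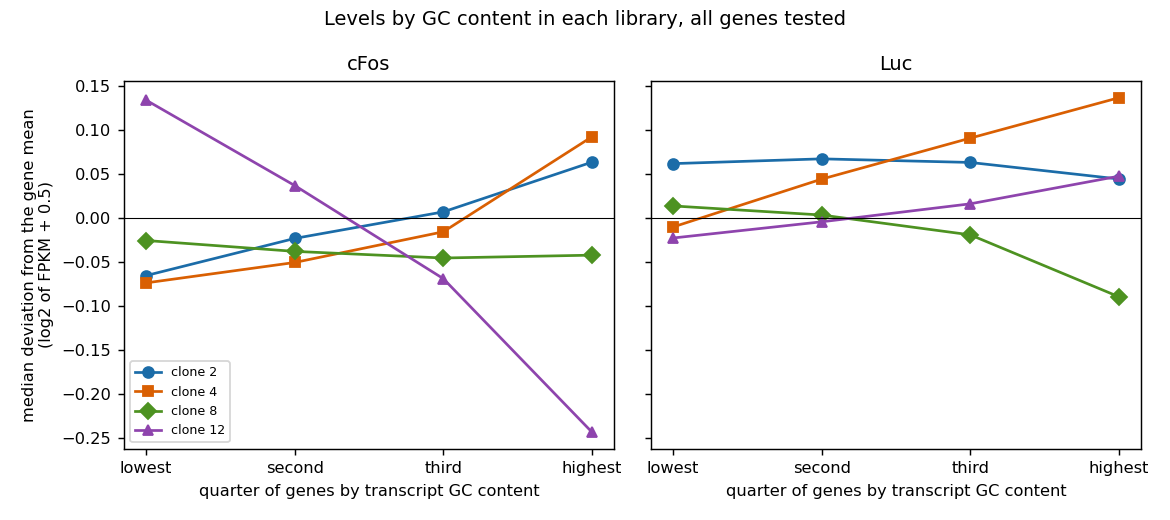
Median deviation from each gene's mean on the log2(FPKM + 0.5) scale, over 4 equal groups of genes ordered by transcript GC content, for the cFos libraries (left) and the Luc libraries (right), over 10988 genes. The line of cFos 12 is at 0.13 in the group of lowest GC content and at -0.24 in the highest, and the other 7 libraries stay between -0.09 and 0.14.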

How the data were processed

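The submitters' processing notes name CASAVA 1.8.2, TopHat and Cufflinks, and the mouse build mm9. Other versions and the annotation were not given in the sources used here. RNA came from a GenElute column kit and libraries from an Illumina TruSeq kit, per the labels' protocols. Per the file headers, every deposited table gives FPKM for RefSeq transcripts, with lower and upper confidence limits, next to coverage (an unscaled signal, the average depth over a transcript) and transcript length. The authors' FPKM are model estimates in which near-identical copies can share reads wrongly. The tables record no scaling across libraries and no counts, so no counting interval was computed, and the deposited FPKM limits are given for Cox7a1 alone. The confidence level of those limits is not in the headers. Gigabases per library were taken as the sum of coverage multiplied by length.

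A table had 30769 entries, of which 30227 found a symbol in RefSeq and 180 in GENCODE, and 362 kept their accession. Entries were summed per symbol, and 3 genes, none of the chain, were left out for a failed status. The test was limma 3.58.1 (R 4.3.3) with the trend option, on log2(FPKM + 0.5), a scale that understates the change of low genes. Genes entered with at least 1 FPKM in at least 4 libraries, and p-values are two-sided with Benjamini-Hochberg adjustment over 11162 genes. Tables and plots were made in Python 3.11.15 (pandas 2.3.3, numpy 2.4.6, matplotlib 3.10.9). The code was tested on simulated data.

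The main model compared the arms alone. Libraries of the same number come from 1 line and are therefore paired, and their deviations from the arm means correlated by 0.174, 0.593, 0.349 and 0.437 for clones 2, 4, 8 and 12. The replicate block was fitted as an alternative. Other alternatives were pseudocounts, filters, scaling, summing, each library left out, and a GC adjustment (lowess, span 0.3) added after the data were seen.

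The rule for the 77 genes reads symbols alone, but the rule and the lists were chosen with earlier results of these data known. Named are genes that passed the test, the 3 of highest level and the largest difference each way per complex (complex I taken as core, accessory and assembly), all of complex II, all tissue isoforms, and the 2 of highest level in each other list. Others are said to be named for their values or role. The values of 1 gene are not reported here.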

Additional observations from a re-analysis of the deposited data

Results flagged for a closer look

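Dixon's criterion at the 95% level was read in 156 groups of 4 libraries (a gene or a sum of genes within an arm). In 6 of them a library lay far from the other 3. Chance gives about 1 in 20, so the flagged share was below that of chance. The groups also overlap, as the sums are made of the same genes. Of the 6, 5 concern values named here, and 4 of these are in Luc 8. Cox4i2 stood apart in both libraries of clone 8, at 7.19 FPKM in cFos 8, against 0.907 to 1.01 FPKM in the other cFos libraries, and at 10.2 FPKM in Luc 8, against 0.566 to 1.00 FPKM in the other Luc libraries. The other 3 were low in Luc 8. Ndufs7 was at 28.5 FPKM there, against 42.8 to 44.5 FPKM in the other Luc libraries. Sdhb was at 54.3 FPKM, against 74.0 to 75.9 FPKM. The summed complex I assembly factors were at 61.5 FPKM, against 82.5 to 84.0 FPKM. Without Luc 8 the log2 difference was -0.53 for Ndufs7 and -0.12 for Sdhb, and neither passed limma's adjusted threshold.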

How the results depend on the processing

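Of 17 alternatives for the comparison of the arms, 14 called 0 genes of the chain, among them the replicate block (0 rises and 0 falls, which changed no call). Without cFos 12, 1 gene rose (Cox7a1); over the libraries left out in turn the count of rises ranged from 0 to 1 and that of falls from 0 to 1, the 1 fall being Ndufa12 without Luc 8. With the GC adjustment and the replicate block, an alternative chosen after seeing the data, 1 gene fell (Ndufb11). The cause was not tested in these cases. The count of genes that differed between clones, 1 as reported, was 0 with a pseudocount of 0.1, with no filter, with a minimum of 5 FPKM (which leaves out Cox4i2) and with the GC adjustment, and 0 to 1 with a library left out; the call on Cox4i2 held without cFos 8. A difference of 1 gene in these counts is 1 adjusted p on the other side of the threshold. Sign changes were read for 30 named genes only, and uncalled values changed sign 24 times, in 7 of these genes. The other tested genes were not read for this. With libraries set to the same median, Cox6a1 was at 0.055, Ndufa7 at 0.026 and Ndufaf7 at 0.0258, and with the GC adjustment Cox6a1 was at 0.0070 in both fits. With a library left out, values ranged from -0.52 to 0.86 for Cox4i2, -0.14 to 0.15 for Cox6a1, -0.15 to 0.0505 for Ndufa7, -0.0765 to 0.00088 for Ndufaf7, -0.22 to 0.047 for Ndufs8, -0.12 to 0.0515 for Sdhb and -0.0045 to 0.13 for Sdhd. The medians of the 71 genes, of both complex I groups and of complex IV kept their sign in 15 of 15 alternatives, that of complex II in 13 and that of complex III in 12. Left-out libraries moved the median of the 71 genes between -0.16 and -0.04. With 4 clones per arm, differences of the size seen here (most under 1.5-fold) lay near the spread between clones, and for genes near 1 FPKM the depth limits the precision.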
